A study of Mus musculus with 16 samples.

Results

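The annexin family and its S100 partners were followed here through 10 genes, the annexins Anxa1, Anxa2, Anxa3, Anxa4, Anxa5 and Anxa6 and the S100 genes S100a4, S100a6, S100a10 and S100a11, out of 19938 genes with a named row on the array. The members were chosen by name from the 2 families, selected on their log2 differences in earlier results of the transgenic against wildtype comparison, so these differences are given as a description without a p-value. All 10 members had a row, and no filter on dim rows was used. The samples were 16 liver RNA preparations from mice of the C57BL/6 background, 7 of genotype Pdgf-c transgenic and 9 wildtype, each on 1 Affymetrix Mouse Gene 1.0 ST array, which reports 1 value for each transcript cluster (a row) on the log2 scale. The promoter that drives the transgene, the age of the mice and whether the samples came from separate animals are not given in the sources used here, so the spread between samples may in part be technical. The labels name stromal cells as the cell type, but by the protocol total hepatic RNA was extracted, and the row of albumin, Alb, averaged 13.54 in transgenic and 13.56 in wildtype arrays.

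Annexins are cytoplasmic proteins that bind acidic phospholipids of membranes when calcium rises, and they take part in membrane repair, endocytosis and exocytosis and in attaching membranes to the actin skeleton. S100 proteins are small EF-hand proteins, most of which bind calcium, that work as dimers and dock onto targets, annexins among them. The best known pair is annexin A2 with S100A10, a heterotetramer at the plasma membrane that binds plasminogen and its activator tPA, and annexin A1 pairs with S100A11 in a similar way.

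In the transgenic livers 7 of the 10 members were higher and none was lower at an adjusted p of 0.05 (limma, Benjamini-Hochberg over all rows). Of all genes, 12.1% were higher and 11.1% lower by the same rule. Of the 11557 genes above the median level of all rows, where all 10 members lay, 16.4% were higher. In the same 7 members every transgenic array lay above every wildtype array, an arrangement shown by 5.43% of all genes, while 3.65% of all genes showed the opposite one. Over all rows 3785 were higher and 2936 lower, which became 2873 and 4688 after median centring of the arrays. The members' counts are a description, since the members were chosen with this contrast known. The median log2 difference, transgenic minus wildtype, was 1.24 over the members and -0.04 over all genes. The members fell into a group of 6 genes between 1.17 and 1.87, S100a4 at 0.57, and a group of 3, Anxa4, Anxa6 and S100a10, between 0.09 and 0.27. In RNA of a whole tissue a change in the number of cells of a type and a change of RNA per cell cannot be told apart.

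**Figure D1:**
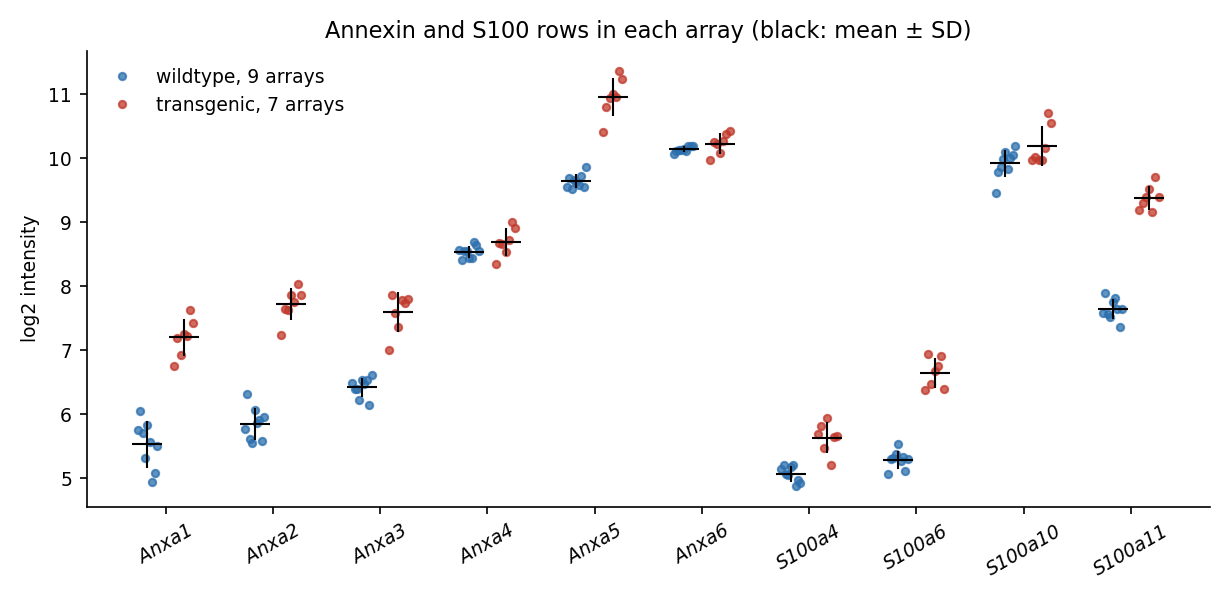
Log2 intensity of the 10 annexin and S100 rows in each array, with 9 wildtype points (blue) and 7 transgenic points (red) per gene and the mean ± SD in black. The 2 colours are apart in Anxa1, Anxa2, Anxa3, Anxa5, S100a6 and S100a11, nearly touch in S100a4 and overlap in Anxa4, Anxa6 and S100a10.

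Anxa2, the membrane-organising annexin that partners with S100A10, had the largest difference of the members. Its log2 intensity ran from 7.24 over a median of 7.76 to 8.03 in the transgenic arrays and from 5.55 over 5.86 to 6.31 in the wildtype arrays. The difference was 1.87 ± 0.117 (SE, 7 against 9 arrays), a 3.66-fold higher level, and 63 of the 19938 genes had a larger rise. Anxa1, whose protein restrains inflammation through formyl peptide receptors, ran from 6.75 over 7.23 to 7.63 in transgenic and from 4.94 over 5.57 to 6.05 in wildtype arrays. It was 3.19-fold higher (1.67 ± 0.154), with the widest spread among the wildtype arrays of all members (SD 0.361, n = 9). In both genes the difference was larger than the SD within either group (transgenic 0.291 and wildtype 0.361 for Anxa1, 0.251 and 0.247 for Anxa2). For Anxa1 the gap from the highest wildtype to the lowest transgenic array was narrower than the range within either group.

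Anxa5, whose protein binds phosphatidylserine and is used to stain dying cells, was 2.49-fold higher (1.32 ± 0.0991). Its transgenic arrays lay between 10.42 and 11.36 with a median of 10.96, and its wildtype arrays between 9.52 and 9.86 with a median of 9.63. Anxa3 was 2.25-fold higher (1.17 ± 0.11), from 7.002 over 7.74 to 7.87 in transgenic and from 6.15 over 6.47 to 6.61 in wildtype arrays. In both genes the lowest transgenic value came from transgenic array 1, and it was still above the highest wildtype value.

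Anxa4 and Anxa6 stood apart from the other 4 annexins. Anxa4, an annexin of epithelial cells, ran from 8.35 over 8.68 to 9.01 in transgenic and from 8.42 over 8.55 to 8.69 in wildtype arrays, so the transgenic arrays spanned the whole wildtype range. The difference was 0.15 ± 0.0771. Anxa6, a larger annexin with a doubled core, ran from 9.98 over 10.25 to 10.43 and from 10.07 over 10.14 to 10.20, and the difference was 0.09 ± 0.0534. Neither passed the threshold with all arrays. Without transgenic array 1, the lowest transgenic array in both genes, the differences were 0.21 ± 0.0663 for Anxa4 and 0.13 ± 0.0445 for Anxa6, and both passed it. A second, dimmer row of Anxa6 differed by 0.04 ± 0.0981.

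S100a11, the partner of annexin A1, had the largest difference of the S100 members. It ran from 9.17 over 9.39 to 9.715 in transgenic and from 7.37 over 7.64 to 7.89 in wildtype arrays, which is 3.34-fold higher (1.74 ± 0.0833). A second row annotated with the same transcripts gave 1.72 ± 0.079. The 2 rows may read the same or near-identical transcripts and are not independent. S100a6, calcyclin, was 2.56-fold higher (1.36 ± 0.0921), with transgenic arrays from 6.38 to 6.95 around a median of 6.67 and wildtype arrays from 5.06 to 5.53 around 5.30.

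S100a4, also called fibroblast-specific protein and found in fibroblasts and leukocytes, was 1.48-fold higher (0.57 ± 0.0906). Its arrays ran from 5.209 over 5.66 to 5.94 in transgenic and from 4.88 over 5.07 to 5.207 in wildtype livers. The groups did not overlap, but the lowest transgenic array, transgenic array 5, lay only just above the highest wildtype array. A larger rise than that of S100a4, the smallest of the 7 called members, was seen in 805 of the 19938 genes. S100a10, the light chain of the annexin A2 complex and an S100 protein that has lost calcium binding, ran from 9.97 over 10.02 to 10.71 in transgenic and from 9.46 over 9.995 to 10.20 in wildtype arrays. The difference was 0.27 ± 0.12 and did not pass the threshold. Transgenic arrays 6 and 7 exceeded every wildtype array, and the other 5 lay within the wildtype range.

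Set side by side, known binding partners differed in how far they moved together. Anxa1 and S100a11 were higher by 1.67 and 1.74, so the log2 ratio of the first to the second shifted by -0.07 between the groups. This ratio had an SD of 0.21 (n = 7) in transgenic and 0.286 (n = 9) in wildtype arrays. Anxa2 and S100a10 were higher by 1.87 and 0.27, and their log2 ratio shifted by 1.60, with an SD of 0.233 in transgenic and 0.326 in wildtype arrays. Against Anxa2 the ratio shifted by 1.31 for S100a4 and by 0.52 for S100a6.

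**Figure D2:**
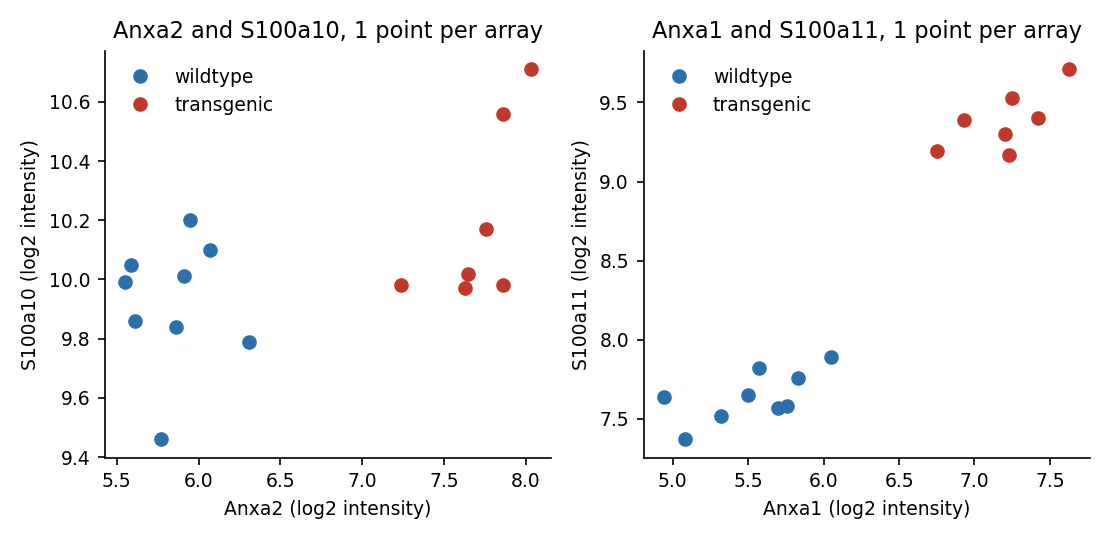
Log2 intensity of S100a10 against Anxa2 (left) and of S100a11 against Anxa1 (right), with 1 point per array, 9 wildtype in blue and 7 transgenic in red. The groups are apart along both axes on the right and only along the Anxa2 axis on the left, where S100a10 spans 9.46 to 10.20 in wildtype and 9.97 to 10.71 in transgenic arrays.

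Covariation within a genotype does not use the contrast by which the members were chosen, and it was tested for 4 pairs of binding partners in each group. None of the 8 correlations passed the threshold after Benjamini-Hochberg adjustment (exact permutation tests, two-sided). Anxa1 and S100a11 gave Pearson's r = 0.64 in wildtype (n = 9, exact p = 0.0618, adjusted 0.249) and 0.69 in transgenic arrays (n = 7, exact p = 0.0808, adjusted 0.249). Spearman's rho was 0.58 (exact p = 0.108, adjusted 0.432) and 0.71 (exact p = 0.0881, adjusted 0.432). Without the 2 arrays farthest from the median of Anxa1, r stayed at 0.64 in wildtype and was 0.04 in transgenic arrays, where the relation rested on transgenic arrays 1 and 6.

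Anxa2 and S100a10 gave r = 0.02 in wildtype (n = 9, exact p = 0.96, rho 0.10, exact p = 0.81) and 0.67 in transgenic arrays (n = 7, exact p = 0.0935, rho 0.57, exact p = 0.2), with adjusted p-values of 0.96 and 0.249. Without the 2 farthest arrays these were 0.35 and 0.55. Anxa2 with S100a4 gave r = 0.36 and 0.03 and rho = 0.35 and 0.07 in wildtype and transgenic arrays (exact p = 0.338 and 0.946 for r and 0.359 and 0.906 for rho). Anxa2 with S100a6 gave r = 0.33 and 0.50 and rho = 0.18 and 0.43 (exact p = 0.381 and 0.257 for r and 0.644 and 0.354 for rho). The adjusted p-values of r for these 2 pairs were 0.508, 0.96, 0.508 and 0.508, and without the 2 farthest arrays r was 0.11, 0.27, 0.68 and -0.32. The difference between the groups in any r was not tested.

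With each group's mean subtracted, 40 of the 45 pairs of members had a correlation above 0 over the 16 arrays, with a median of 0.36. The same share over pairs of other genes was not computed, so the count cannot be read as particular to the members. The closest pair was Anxa4 and Anxa6 at 0.91, followed by Anxa5 and Anxa6 at 0.81 and Anxa2 and S100a11 at 0.80, and the lowest was S100a4 with Anxa6 at -0.37. Single arrays moved many members at once. Transgenic array 1 was the lowest transgenic array in 7 members, with a mean deviation from the group mean of -0.33, and transgenic array 6 was the highest in 6 members, with 0.29. Transgenic array 1 and wildtype array 9 were also the ends of the second principal component of all rows (-28.8 and 54.4).

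By the rule for likeness, the gene outside the list with the highest correlation after subtracting group means was named for each member, out of 11547 genes above the median level. Anxa1 was closest to the leukocyte tetraspanin Cd53 (r = 0.91, 16 arrays), which was itself higher by 0.82 ± 0.134. Anxa2 was closest to Rcn3 (0.88), a calcium-binding protein of the endoplasmic reticulum, higher by 1.33 ± 0.102, and S100a11 to Tmsb10 (0.88), the actin-binding thymosin beta 10, higher by 1.98 ± 0.0816. Adjusted p-values (limma) of these genes were 0.000202, 3.11e-08 and 8.69e-12. None of the genes closest to the other 4 called members was called higher. Anxa3 was closest to Ufc1 (r = 0.93), which was lower (-0.20 ± 0.0571, limma adjusted p = 0.0161). Anxa5 was closest to Cwc15 (0.93), S100a6 to Paip2b (0.82) and S100a4 to Tfdp1 (0.82), which differed by -0.11, -0.17 and 0.03 (limma adjusted p = 0.0906, 0.0522 and 0.741). Of the members that were not called, Anxa4 was closest to Pop4 (0.95), Anxa6 to Pnpt1 (0.97) and S100a10 to Sub1 (0.92), with differences of 0.10, -0.16 and 0.15 (limma adjusted p = 0.544, 0.241 and 0.0425). These are descriptions over arrays normalized together. Each r is the largest among 11547 genes on 16 arrays, so a high value can arise between unrelated genes. The level reached by chance was not determined.

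The rest of both families was read from lists by name. These hold what remained after the members were chosen with their differences known, so their medians are no independent background for the members. Of the 6 other annexins, 1 was higher and none lower (limma, against 12.1% and 11.1% of all genes). This was Anxa9, an annexin with reduced calcium binding, at 1.36-fold (0.44 ± 0.0961, adjusted p = 0.00271), where 6 of 7 transgenic arrays exceeded all wildtype arrays. Anxa7, Anxa8, Anxa10 and Anxa13 differed by between -0.11 and -0.03. Anxa11, a long-tailed annexin that binds S100A6, differed by -0.20 ± 0.0763 (limma adjusted p = 0.0727) and was called lower without wildtype array 2 (-0.25 ± 0.0659, limma adjusted p = 0.0135) and with arrays centred on their medians (-0.25, adjusted p = 0.0222). The median of the list was -0.04, equal to that of all genes.

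Of 12 other S100 genes, 3 were higher and none lower at an adjusted p of 0.05 (limma, against 12.1% and 11.1% of all genes). The median was -0.08. S100a8, a neutrophil calgranulin, had the largest difference of either family. Its arrays ran from 6.84 over 7.35 to 8.60 in transgenic and from 4.38 over 4.46 to 5.27 in wildtype livers, 7.93-fold higher (2.99 ± 0.245, limma adjusted p = 7.11e-08). Its partner S100a9 was 3.39-fold higher (1.76 ± 0.198, limma adjusted p = 3.47e-06), between S100a11 and Anxa2 in size. In both, the transgenic SD (0.721 and 0.606, n = 7) was above that of every member. S100a16 was 1.10-fold higher (0.14 ± 0.0444, limma adjusted p = 0.0327), a call that was lost on centring (0.09, limma adjusted p = 0.251) and without any of transgenic arrays 2, 5, 6 and 7 or wildtype arrays 2, 4, 6 and 8 (0.12 to 0.14, limma adjusted p 0.0545 to 0.0755). The remaining 9 ranged from -0.22 for S100b to 0.11 for S100a14. Of these, S100a13 was called lower without transgenic array 1 (-0.14, limma adjusted p = 0.0138). S100a2, which the list had missed, was looked up later and differed by 0.05 ± 0.0948 (limma adjusted p = 0.781).

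**Figure D3:**
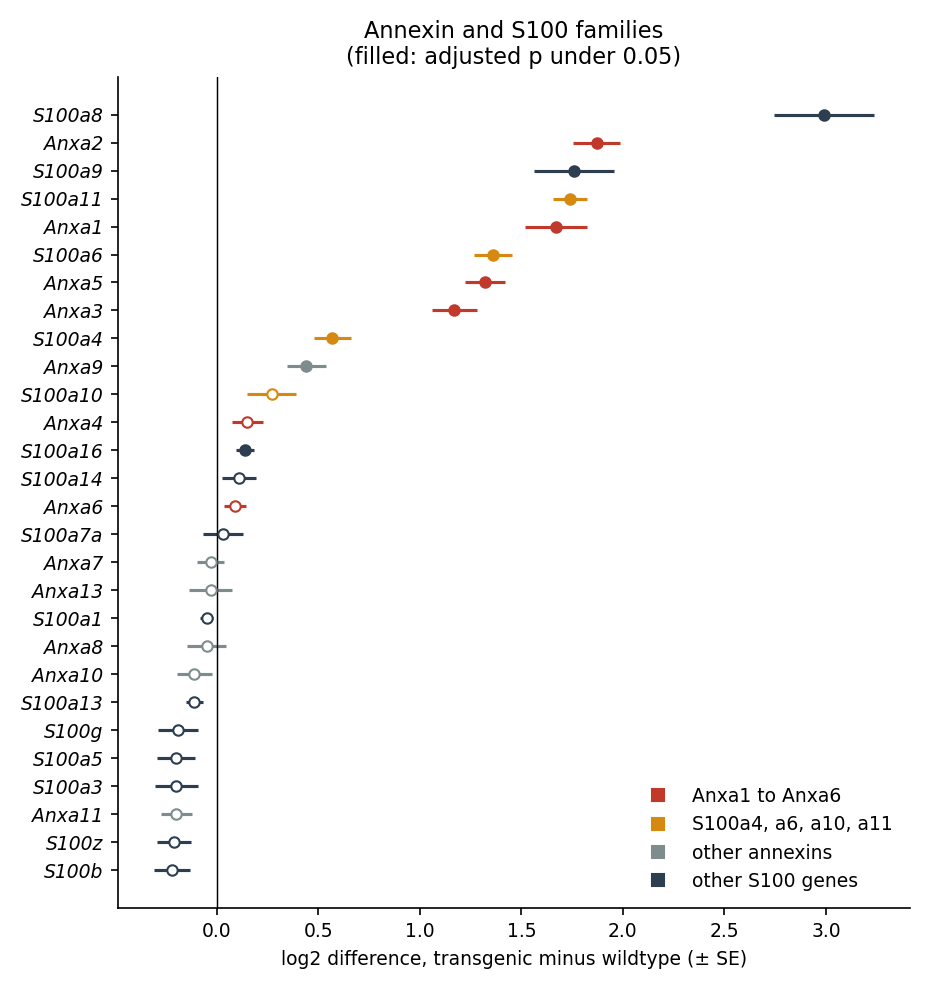
Log2 difference, transgenic minus wildtype, ± SE of the fit (7 against 9 arrays) for 28 annexin and S100 genes in order of size, with filled points at an adjusted p under 0.05. S100a8, S100a9 and the 7 called members lie from 0.57 upwards, Anxa9 lies at 0.44, and the remaining 18 genes, the members S100a10, Anxa4 and Anxa6 among them, lie between -0.22 and 0.27.

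All 4 S100 members lie on chromosome 3, which made the position of their neighbours readable. In the RefSeq gene table (assembly GRCm38.p6, used for gene order) 12 S100 genes follow each other with no other coding gene between them, from S100a1 to S100a9, and S100a11 and S100a10 follow as direct neighbours 56 coding genes further on. Within this order S100a1, S100a13, S100a14, S100a16, S100a3 and S100a2 came first. They differed by between -0.20 and 0.14, and of them only S100a16 (0.14) was called. From S100a4 onwards, higher genes and genes that were not called were interleaved, with the higher genes S100a8 (2.99) and S100a9 (1.76) side by side. S100a4 (0.57) and S100a6 (1.36) flank S100a5, which differed by -0.20 ± 0.0952 (limma adjusted p = 0.174), and S100a3 and S100a2 on the far side of S100a4 differed by -0.20 and 0.05. S100a7a, between S100a6 and S100a8, differed by 0.03 ± 0.0978 (limma adjusted p = 0.883). S100a11 and S100a10, side by side, were higher by 1.74 and 0.27. The 6 annexin members lie on 6 chromosomes, 19, 9, 5, 6, 3 and 11 in the order of their names.

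**Figure D4:**
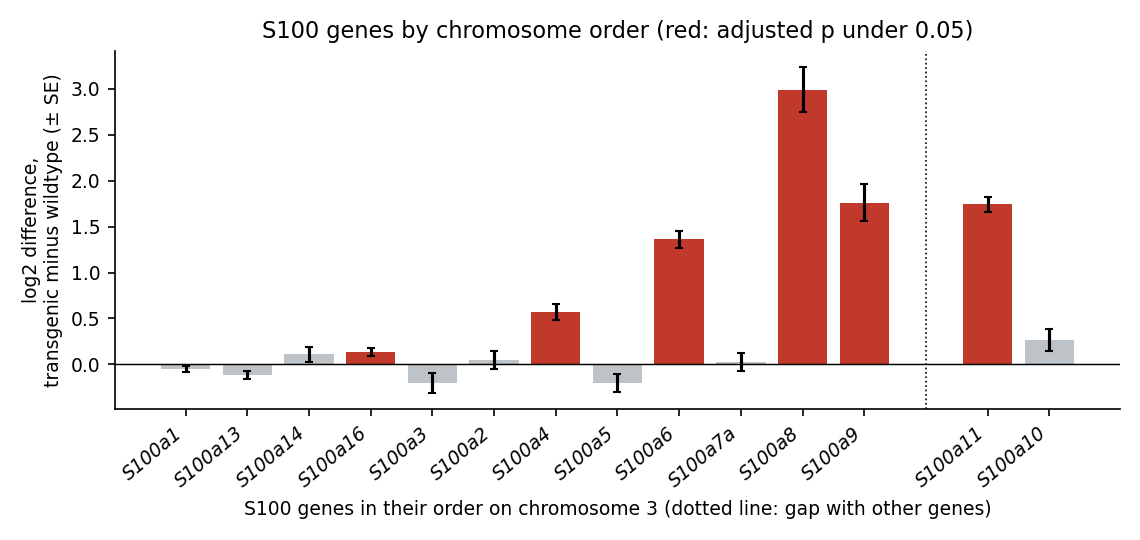
Log2 difference, transgenic minus wildtype, ± SE (7 against 9 arrays) of the 14 S100 genes of chromosome 3 in their order along it, with genes at an adjusted p under 0.05 in red and the rest in grey. S100a4, S100a6, S100a8, S100a9 and S100a11 stand out above their neighbours S100a5, S100a7a and S100a10.

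The bases before the start site are shown for 5 genes, the neighbours S100a4, S100a5 and S100a6 with their different responses, and Anxa2 and S100a11, the largest differences of the 2 member families. RefSeq promoter sequence (GRCm38.p6) was at hand for 7 of the 10 members and 16 of the 18 other family genes. Each line gives the 250 bases before the start, 5′ to 3′, all 5 genes being on the plus strand. Capitals mark matches on either strand to the TATA box (TATAAA or TTTATA), the CCAAT box (CCAAT or ATTGG), the GC box (GGGCGG or CCGCCC), the AP-1 site (TGACTCA or TGAGTCA) and the TEAD site (GGAATG or CATTCC), and none of the matches overlap here.
Anxa2: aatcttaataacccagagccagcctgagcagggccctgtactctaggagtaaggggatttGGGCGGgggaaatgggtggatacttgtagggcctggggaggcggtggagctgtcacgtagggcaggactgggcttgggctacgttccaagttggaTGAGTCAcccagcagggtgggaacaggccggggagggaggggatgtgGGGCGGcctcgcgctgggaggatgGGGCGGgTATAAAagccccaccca
S100a11: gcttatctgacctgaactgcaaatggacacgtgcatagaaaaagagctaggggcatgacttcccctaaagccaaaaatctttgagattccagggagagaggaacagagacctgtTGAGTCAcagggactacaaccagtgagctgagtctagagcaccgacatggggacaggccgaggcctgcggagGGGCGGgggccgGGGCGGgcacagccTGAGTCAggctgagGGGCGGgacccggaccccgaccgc
S100a4: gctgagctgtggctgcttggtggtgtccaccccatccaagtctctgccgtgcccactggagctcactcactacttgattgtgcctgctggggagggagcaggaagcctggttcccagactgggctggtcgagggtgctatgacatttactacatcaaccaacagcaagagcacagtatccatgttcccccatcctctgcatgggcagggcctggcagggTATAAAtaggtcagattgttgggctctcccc
S100a5: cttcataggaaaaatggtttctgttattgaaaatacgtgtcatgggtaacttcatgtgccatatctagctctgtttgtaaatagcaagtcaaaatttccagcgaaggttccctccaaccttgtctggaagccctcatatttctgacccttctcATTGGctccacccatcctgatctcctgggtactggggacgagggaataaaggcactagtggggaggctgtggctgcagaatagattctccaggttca
S100a6: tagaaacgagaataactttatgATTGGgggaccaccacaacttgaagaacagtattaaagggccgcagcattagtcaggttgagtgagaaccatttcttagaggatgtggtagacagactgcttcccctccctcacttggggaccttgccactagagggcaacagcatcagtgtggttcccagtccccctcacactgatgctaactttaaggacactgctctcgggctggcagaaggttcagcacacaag
These are chr9:69453433-69453682 for Anxa2, chr3:93520246-93520495 for S100a11, chr3:90603520-90603769 for S100a4, chr3:90608272-90608521 for S100a5 and chr3:90612644-90612893 for S100a6.

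Anxa2 held the AP-1 letters once, with the first base 95 bases before the start, and S100a11 at 136 and 38 bases. Among the other family genes with a promoter at hand only Anxa10, which was not called (-0.11), held them, at 180 and 16 bases. The remaining members with a promoter at hand, Anxa1 (1.67), S100a6 (1.36), Anxa5 (1.32), S100a4 (0.57) and Anxa4 (0.15), did not. Of 32851 RefSeq promoters of this length, 4.46% held them. Anxa2 and S100a11 also held 3 GC boxes each, a motif in 32.7% of promoters. S100a4 held a TATA box 31 bases before the start and Anxa2 one 17 bases before it (12.4% of promoters). S100a5 and S100a6 each held 1 CCAAT box, at 97 and 228 bases (33.8% of promoters). Of these 5 windows none held the TEAD letters (12.6% of promoters), which Anxa1 held once. A match of letters is a description and was not tested against the differences.

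The plasminogen system, which the annexin A2 complex binds at the cell surface, had 6 of 8 listed genes with a row. Of these 3 were higher and 1 lower (limma, against 12.1% and 11.1% of all genes), with a median of 0.47. Plat, the tissue plasminogen activator tPA, was 2.20-fold higher (1.14 ± 0.0712), with transgenic arrays from 6.05 to 6.205 and wildtype arrays from 4.81 to 5.34. Plau, urokinase, was 1.91-fold higher (0.93 ± 0.0955) and Plgrkt, a plasminogen receptor, 1.73-fold (0.79 ± 0.111). Plg, plasminogen itself, made by hepatocytes, was 1.14-fold lower (-0.18 ± 0.0214). Its 7 transgenic arrays lay below all 9 wildtype arrays, as in 3.65% of all genes. The adjusted p-values (limma) were 1.98e-09, 1.19e-06, 4.27e-05 and 5.48e-06. Plaur, the urokinase receptor, differed by 0.14 ± 0.0777 (limma adjusted p = 0.256). Serpinf2, the plasmin inhibitor, differed by -0.14 ± 0.0546 (limma adjusted p = 0.0896) and was called lower without wildtype array 2 (limma adjusted p = 0.0153).

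Of 10 genes of membrane repair and its scaffolds, 3 were higher and none lower (limma, against 12.1% and 11.1% of all genes), with a median of 0.16. Myof, the ferlin myoferlin, was 2.38-fold higher (1.25 ± 0.0968), Cavin1, a coat protein of caveolae, 2.25-fold (1.17 ± 0.105) and Ahnak, a giant scaffold that binds the annexin A2 complex, 2.08-fold (1.06 ± 0.076), with adjusted p-values (limma) of 3.34e-08, 2.31e-07 and 1.30e-08. In each, no transgenic array overlapped the wildtype arrays. The ferlin Dysf, Cav1 and Capn1 differed by 0.09 ± 0.0624, 0.22 ± 0.145 and 0.12 ± 0.0755 (limma adjusted p = 0.353, 0.336 and 0.313). The calpain genes Capns1 and Capn2 were called higher without transgenic array 1 (0.16, limma adjusted p = 0.0079) and without wildtype array 9 (0.23, limma adjusted p = 0.0496), in that order.

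Of 7 targets and receptors of S100 proteins, 2 were higher and 1 lower (limma, against 12.1% and 11.1% of all genes), with a median of 0.06. The non-muscle myosin heavy chains Myh9, the classic target of S100A4, and Myh10 were 1.79-fold (0.84 ± 0.0673) and 2.10-fold (1.07 ± 0.0966) higher, while the syndecan Sdc1 was 1.15-fold lower (-0.20 ± 0.052), with adjusted p-values of 5.15e-08, 2.49e-07 and 0.00974. Cacybp, the calcyclin-binding protein named for S100A6, and Ager, the receptor RAGE, differed by 0.00 ± 0.0654 and 0.06 ± 0.0899 (limma adjusted p = 0.98 and 0.707). Of 7 listed genes of the annexin A1 axis only 3 had a row of their own, and Pla2g4a, the cytosolic phospholipase A2, was 1.5-fold higher (0.59 ± 0.119, limma adjusted p = 0.00155). Without transgenic array 7 the cyclooxygenase gene Ptgs2 was called as well (0.22, limma adjusted p = 0.0489).

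Markers of several cell types that can express these genes also differed between the groups, some lists higher and some lower. Their part in the members' differences was not tested. Of all genes, 12.1% were higher and 11.1% lower. All 10 stellate cell and fibroblast markers were higher, and their summed linear intensity ran from 5601 to 7079 in transgenic and from 1339 to 2278 in wildtype arrays. Each such sum is weighted towards the brightest genes of its list and does not measure the number of cells. All 6 measured monocyte and macrophage markers were higher (1480 to 2356 against 624 to 1154), as were 4 of 7 neutrophil markers (164 to 288 against 124 to 156) and 4 of 7 lymphocyte markers (215 to 301 against 173 to 199). All 5 Kupffer cell markers were lower (227 to 571 against 1140 to 2291), and of 6 endothelial markers 1 was higher and 3 were lower (611 to 831 against 1473 to 1879). Of 5 cholangiocyte markers none was called (149 to 181 against 156 to 170), and of 7 mesothelial markers Wt1 alone was higher (210 to 260 against 197 to 230). Of 6 hepatocyte markers 1 was higher and 2 lower (50278 to 54611 against 51178 to 55321). Some markers were dim. Cftr of the cholangiocyte list averaged 3.137 and Muc16 of the mesothelial list 3.162, below the 20th percentile of the row means (3.456). Whether each marker was detected was not tested.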

How the data were processed

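Hepatic RNA of 7 Pdgf-c transgenic and 9 wildtype samples was hybridised to 1 Affymetrix array each, per the labels' protocols. The deposited values are log2 intensities that the authors made with GCRMA (background correction by probe sequence, normalization between arrays, summary per transcript cluster), per the submitters' processing notes. The version, settings and log base are not given in the sources used here; base 2 was taken from the range of 0.71 to 14.67. Values of dim rows depend most on the background correction.

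Of 35557 rows, 21789 had 1 gene symbol. These named 19938 genes, each read from its brightest row by the mean of the 16 arrays. Groups came from the sample titles. The comparison used limma 3.58.1 (R 4.3.3; lmFit, eBayes with trend, 14 residual degrees of freedom, two-sided) on all rows without a filter, with Benjamini-Hochberg adjustment over all rows and a threshold of 0.05. Differences are transgenic minus wildtype with the standard error of the fit. The fit was tested on simulated data. Other tests were exact permutation tests in Python 3.11.15.

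The members and lists were chosen with earlier results of these data known. Named were all members, any gene of both families, and per further list up to 4 called genes by size. Other list genes, Wt1, Cftr and Muc16 among the markers, and S100a2 were named after their values were seen. Cell type markers were textbook genes. The number of arrays limits the precision. Alternatives were other normalizations, a filter on dim rows, eBayes without trend, array weights, averaging the rows of a gene, a block for the replicate number, and omission of single arrays. Plots were drawn with matplotlib 3.10.9.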

Additional observations from a re-analysis of the deposited data

Results flagged for a closer look

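In 78 comparisons of an array with the rest of its group, 5 values, from 4 arrays, stood apart by Dixon's test at its 95% critical value, where chance alone gives about 1 in 20. None was in a member. Anxa13 read 4.28 in transgenic array 3, the next transgenic value being 4.64. S100a1 read 9.96 in wildtype array 3 (next 9.87), and S100a7a read 4.65 in wildtype array 9 (next 5.06). S100z read 3.48 (next 3.84) and Plg 12.57 (next 12.51) in transgenic array 7.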

How the results depend on the processing

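The 7 called members kept their direction and side of the threshold under every alternative run, and the member count was 7 throughout, except 9 without transgenic array 1, alone or with wildtype array 9 (the latter pair chosen after seeing the data), where Anxa4 (0.21 and 0.21) and Anxa6 (0.13 and 0.14) were called as well. Of 241 alternative values of member differences, 237 kept their call and 0 changed sign; of 88 for the correlations, all 88 stayed uncalled. Other annexins counted 1 lower with arrays centred on medians and on rows above the median level. On the latter rows 0 other annexins and 0 genes of the annexin A1 axis were higher. The rows of Anxa9 (mean 4.532) and Pla2g4a (4.725), called with all rows, lay below the median level of 5.246 and were left out there. Other S100 genes counted 3 lower on centring and 1 lower with array weights or without transgenic array 1 and wildtype array 9 together. On centring 2 plasminogen genes were lower, and without that pair 5 membrane repair genes were higher. Rows called lower rose from 2936 to 4688 on centring, and rows called higher were 2873 there against 3785. Leaving out 1 array gave 0 to 1 other annexins lower, 0 to 1 other S100 genes lower and 2 to 3 higher, 1 to 2 plasminogen genes lower, 1 to 2 genes of the annexin A1 axis higher and 3 to 4 membrane repair genes higher.

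With the replicate number as a block the member count was 7 and the other S100 genes called higher were 2, S100a16 being lost (limma adjusted p = 0.0995). The labels do not say whether the numbers pair the samples. The correlation of deviations between arrays with the same number lay between -0.02 and 0.09, and such low values do not exclude pairing. The cause of the shifts in these counts was not tested. Of the other annexins and S100 genes named, Anxa10 was the dimmest, its mean level being at percentile 14.5 of all rows, and the effect of low signal on the fold changes was not tested.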
